A study of Mus musculus with 12 samples.

Results

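The genes described here are 57 developmental regulators of the mouse, chosen by name: 25 Hox genes of the A, B, C and D clusters and 32 other genes, namely Pax, Sox, Gata, forkhead, T-box and other homeobox transcription factors and the signalling genes Shh, Bmp4, Wnt1 and Notch2. A cytosine was counted for a gene when it lay in the gene body on GRCm38 or within 5 kb of it. By this rule 46 of the 57 genes had at least 1 measured CpG cytosine, and together they held 193 of the 14149 cytosines of the count table, out of 7240 annotated genes with a cytosine in their window. The 11 genes without one were Hoxb1, Hoxc4, Hoxc8, Hoxd1, Hoxd13, Pax1, Sox1, Sox17, Lhx9, Six2 and Wnt1.

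Hox genes encode homeodomain transcription factors that give segments of the body axis their identity, and the Pax, Sox, Gata, Fox and T-box genes act in a similar way in particular organs. Their promoters lie in CpG-rich DNA that in most tissues carries little methylation and is often held silent by Polycomb proteins. In sperm such promoters are known to stay unmethylated while carrying histone marks, against a genome that is otherwise largely methylated.

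The study asked whether the DNA methylation of spermatozoa changes between the testis and the 3 successive segments of the epididymis, caput, corpus and cauda. Spermatozoa came from untreated B6D2F1- Tg mice of the line RBGS002Osb, which carries the transgenes CAG/su9-DsRed2 and Acr3-EGFP, aged 10 to 12 weeks, in which a ubiquitous promoter drives a red protein into mitochondria and an acrosin promoter drives a green protein into the acrosome. Cells positive for both colours were sorted, and reduced representation bisulfite sequencing (RRBS), which reads cytosine methylation in CpG-rich fragments, was run on 3 samples from each of the 4 sites. The testis group is the reference in all 3 comparisons. Per the study's methods, cauda spermatozoa were flushed out by perfusion and centrifuged, while testis, caput and corpus tissue was cut up and dissociated mechanically before flow cytometry, so the place of collection and the way of isolation cannot be told apart for cauda. The study's text mentions a pool of mice and calls the comparisons with testis paired, but does not say which samples share a pool, so samples were compared as unpaired.

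A methylation level is the percent of reads at a cytosine, or summed over the cytosines of a gene window, that were methylated. Reads over the 14149 cytosines came to 945451, 1007992 and 879218 for testis replicates 1, 2 and 3, to 643941, 869129 and 706411 for caput, to 429606, 848746 and 616626 for corpus and to 784708, 679576 and 765781 for cauda. Corpus replicate 1 was the shallowest. Over the cytosines of the 46 genes the median depth per cytosine ran from 24 reads in that sample to 45 reads in testis replicate 2, and single cytosines had from 10 to 568 reads. Caput replicate 1 stood apart over all cytosines: its levels correlated with the testis samples at r = 0.737 to 0.746, against 0.915 to 0.925 for the other caput samples, and with those caput samples at r = 0.857 to 0.872, against 0.944 between them. These are across 14149 cytosines, which are not independent replicates, and the members' totals in caput by the site test and by limma, and the differences at the called cytosines, are also given without this sample.

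The measured cytosines were spread unevenly. In the Hox A cluster there were 1 in Hoxa2, 12 in Hoxa3, 2 in Hoxa5, 1 in Hoxa7, 12 in Hoxa9, 15 in Hoxa10, 9 in Hoxa11 and 2 in Hoxa13. The Hox B cluster had 2 in Hoxb3, 6 in Hoxb4, 2 in Hoxb6, 4 in Hoxb9 and 1 in Hoxb13, the Hox C cluster 3 in Hoxc6, 6 in Hoxc10 and 2 in Hoxc13, and the Hox D cluster 5 in Hoxd3, 4 in Hoxd4, 2 in Hoxd9 and 3 in Hoxd11. Neighbouring Hox genes share cytosines, 24 in all, so Hoxa9 and Hoxa10, or Hoxd3 and Hoxd4, are not separate measurements. Among the Pax and Sox genes there were 10 in Pax2, 4 in Pax3, 2 in Pax5, 2 in Pax6, 10 in Pax7, 3 in Pax9, 2 in Sox2 and 6 in Sox9, and among the Gata and forkhead genes 4 in Gata2, 11 in Gata3, 11 in Gata4, 3 in Gata6, 2 in Foxa1, 1 in Foxa2, 11 in Foxc1 and 8 in Foxd3. The T-box and other homeobox genes had 8 in Tbx3, 1 in Tbx5, 1 in Lhx2, 3 in Nkx2-2, 2 in Nkx2-5, 3 in Otx2 and 2 in Irx3, and the signalling genes 5 in Shh, 6 in Bmp4 and 2 in Notch2.

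In testis these genes were mostly unmethylated. Of their 193 cytosines, 173 (89.6%) had a testis mean under 10%, 9 had a mean above 90% and 11 lay between. Of all cytosines measured, 42% had a testis mean under 10%. The mean over the members' cytosines was 8.1%, 8.48% and 7.81% for testis, 13.9%, 11.1% and 10.4% for caput, 7.85%, 10.7% and 9.39% for corpus and 8.09%, 7.99% and 7.54% for cauda. The 3 caput samples lay above all testis samples, while the corpus and cauda samples overlapped them. Over all 14149 cytosines caput lay above testis too, with 53.3%, 50.9% and 50.8% in caput against 47.8%, 49% and 48.6% in testis.

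The first comparison set caput against testis, cytosine by cytosine. A cytosine was called when a logistic regression on methylated and unmethylated reads gave an adjusted p under 0.01 over all 14149 cytosines and the pooled levels differed by more than 25 percentage points. In the members' windows 19 of 193 cytosines (9.84%) were called, against 16.8% over the whole table. Of these, 14 (7.25%) were higher in caput, against 11.5% of all cytosines, and 5 (2.59%) were lower, against 5.25%. Among cytosines with a testis mean under 10%, 14 of 173 members' cytosines (8.09%) were called higher, against 16% of all such cytosines. The called cytosines lay in the windows of 11 genes: Shh, Bmp4, Hoxc6, Hoxa2, Tbx5 and Foxd3 rose, and Hoxd3, Hoxd4, Pax7, Gata2 and Notch2 fell. The test takes reads as independent and leaves out the spread between samples. edgeR, which includes that spread, called 7 of the 19 cytosines, 5 of Shh and 2 of Pax7, at an adjusted p under 0.05, which is 3.63% of the members' cytosines, against 2.16% of all. At an unadjusted p under 0.05 and the same difference it passed 17 (8.81%, against 11.5% of all). The members' share was thus below that of all cytosines in the site test and at edgeR's unadjusted p, and above it at edgeR's adjusted p. That last share rests on 7 cytosines in 2 short stretches, whose cytosines lie close together and are not independent. Without caput replicate 1 the site test called 16 cytosines (8.29%, against 11.9% of all). Cytosines that passed only without 1 sample were in Foxd3 (chr4:99655805, a difference of 26.4 percentage points without caput replicate 2 and 26.3 without caput replicate 3), Hoxa3 (25.5 without caput replicate 2), Bmp4 (31.7 without caput replicate 3 and 25.5 without testis replicate 3), Sox2 (fell by 32.5 without caput replicate 3) and Hoxc10 (fell by 29.4 without testis replicate 1 and fell by 28.6 without testis replicate 3).

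**Figure D1:**
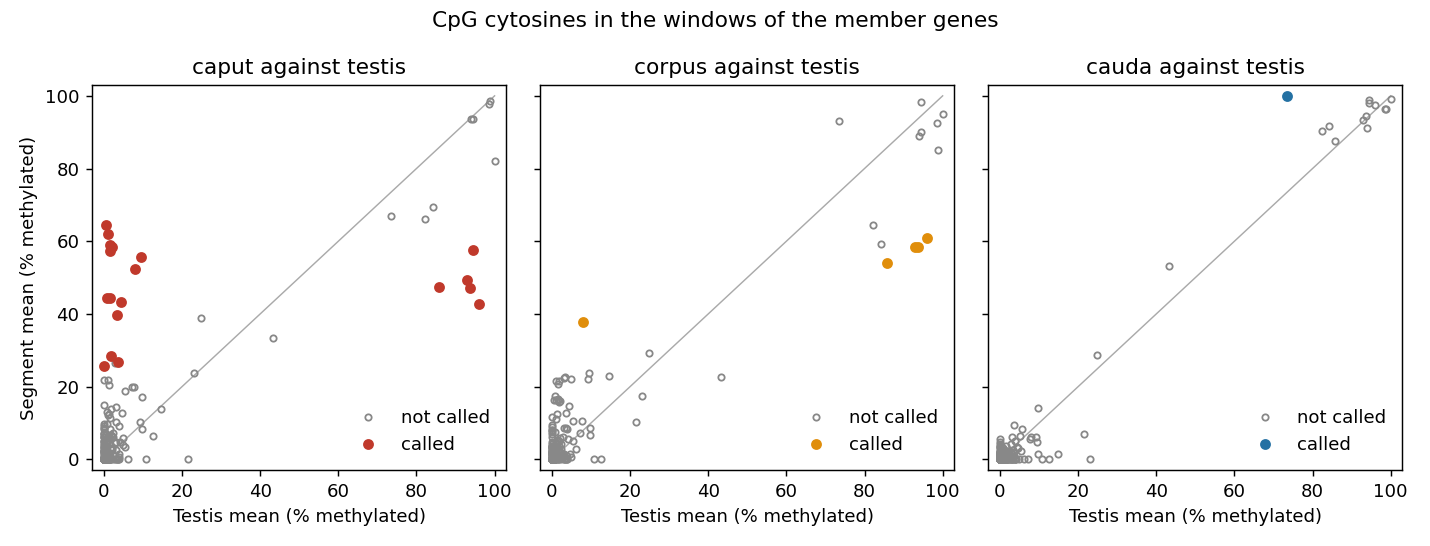
Mean methylation of each of the 193 cytosines in the members' windows in testis (x axis, percent methylated, n = 3) against caput, corpus and cauda (y axis, percent methylated, n = 3). Filled points are called cytosines, 19 in caput, 5 in corpus and 1 in cauda; the grey line marks equal levels.

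The second test summed reads over a gene window and used limma, which weighs the spread between samples, on log2 of methylated over unmethylated percent with 1 percent added to each, over all 7240 genes. In caput 10 of the 46 genes (21.7%) passed an adjusted p under 0.05, against 7.78% of all genes. All 10 were higher, against 5.28% of all genes, and 0 were lower, against 2.5%; at an unadjusted p under 0.05 limma passed 17 of the 46 in either direction (37%, against 24% of all genes). The 10 were Shh, Bmp4, Hoxc6, Hoxa9, Hoxa10, Hoxa11, Foxd3, Tbx5, Otx2 and Irx3, of which Hoxa9 and Hoxa10 rest largely on the same cytosines. Without caput replicate 1 limma called 5 (10.9%, against 2.71% of all genes), namely Shh, Hoxa11, Foxd3, Otx2 and Irx3. With 5 percent added in place of 1 it called 12, the 10 with Hoxa2 and Gata4 (limma adjusted p = 0.0291 for Gata4, against 0.0595 with 1 percent). Without testis replicate 1 it called Foxa1, lower in caput (limma adjusted p = 0.00620, against 0.125 with all samples). In 18 genes all 3 caput samples lay above all 3 testis samples (39.1%, against 15.2% of all genes) and in 5 they lay below (10.9%, against 10%). With caput replicates 2 and 3 alone these were 18 (39.1%, against 17.4%) and 5 (10.9%, against 12.3%). The median difference of the gene means was 1.94 percentage points over the 46 genes and 0 over all genes, and 1.22 and 0 without caput replicate 1. A single gene was also tested by an exact two-sided permutation of its sample values, whose smallest possible p with 3 samples against 3 is 0.1, so no single gene could pass 0.05 by it.

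**Figure D2:**
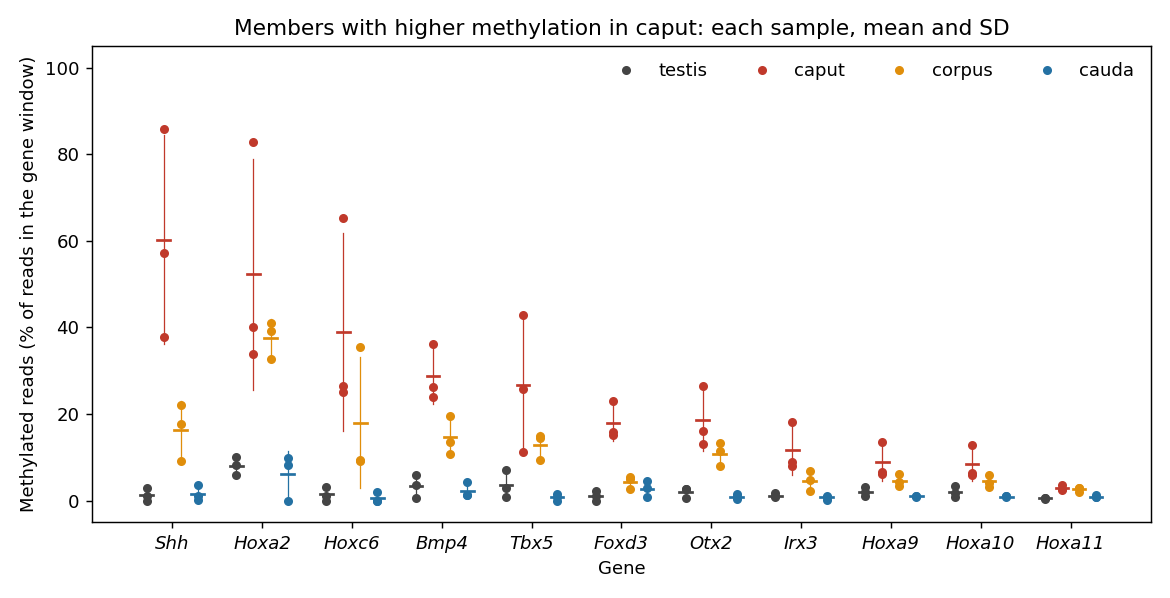
Methylated reads in percent of all reads of the gene window (y axis) for the 11 genes that rose in caput at a cytosine or over the gene (x axis), in testis, caput, corpus and cauda. Points are samples, horizontal bars are means and vertical lines are 1 SD (n = 3); in Shh the caput samples span 37.8% to 85.7% and all testis samples are under 3%.

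Shh, the secreted Hedgehog ligand that patterns the neural tube and limb (chr5:28456815-28467256, minus strand), differed most. Its methylation was 0%, 2.89% and 1.02% for testis, 85.7%, 57.1% and 37.8% for caput, 9.16%, 22.2% and 17.6% for corpus and 1.16%, 0.17% and 3.56% for cauda, at 371 to 840 reads per sample. Every caput sample lay far above every testis sample, the corpus samples lay between, and cauda overlapped testis. The caput mean was 60.2% ± 24.1 (SD, n = 3) against 1.3% ± 1.47 (SD, n = 3) in testis (log2 ratio 6.39, SE 0.91, limma adjusted p = 0.00974; exact permutation p = 0.1). Without caput replicate 1, the highest sample, the difference was 46.2 percentage points in place of 58.9. All 5 cytosines lie in the 3' UTR between chr5:28457808 and chr5:28457830 and were called. The 3 with the largest differences, at chr5:28457808, chr5:28457826 and chr5:28457821, rose by 65 percentage points, 62.1 percentage points and 58.2 percentage points, with edgeR adjusted p = 6.66e-05, 0.000476 and 0.00104. Without caput replicate 1 the 5 rose by 52.4, 44, 45.1, 48 and 45.3 percentage points, in the order of their positions.

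Bmp4, a ligand of the TGF-beta family needed for mesoderm and germ cell induction (chr14:46383520-46390669, minus strand), had 5.96%, 3.56% and 0.671% for testis, 36.3%, 23.9% and 26.2% for caput, 13.5%, 19.6% and 10.7% for corpus and 1.32%, 4.38% and 1.21% for cauda, at 91 to 247 reads. The caput samples did not overlap testis, nor did corpus, and cauda did. The caput mean was 28.8% ± 6.58 (SD, n = 3) against 3.4% ± 2.65 (SD, n = 3) (log2 ratio 3.40, SE 0.61, limma adjusted p = 0.0173). The call was lost without caput replicate 1 (limma adjusted p = 0.0568, from 0.00675 to 0.0568 over its 11 alternatives). Its 3 called cytosines lie just upstream of the transcription start, 72, 35 and 67 bases before it, with differences of 42 percentage points, 35.3 percentage points and 34.1 percentage points, and 11 to 41 reads a sample. Without caput replicate 1 these were 32.1, 26.9 and 29 percentage points. Each of them was above every testis sample in all 3 caput samples.

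Notch2, a transmembrane receptor (chr3:98013527-98150361, plus strand), was the most methylated member in testis. It had 95.8%, 91.4% and 95.5% for testis, 84.8%, 89.9% and 84.1% for caput, 92.9%, 100% and 96.1% for corpus and 100%, 97.1% and 97.6% for cauda, at 35 to 118 reads. Caput lay below testis and cauda above it in every sample, but limma did not call either (adjusted p = 0.408 and 1). The cytosine at chr3:98147408, in a coding exon, fell by 28.7 percentage points in caput, with 50%, 82.6% and 40% against 96.4%, 87% and 100% in testis. The difference was under 25 percentage points without caput replicate 1 or without caput replicate 3 (fell by 23.4 and fell by 21.7), and without caput replicate 2 it fell by 47.7. Its 6 listed caput cytosines of the study's list are all outside the count table.

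Hoxc6, a patterning gene of the thoracic region (chr15:102998257-103011881, plus strand), had 0%, 3.2% and 1.06% for testis, 65.2%, 26.5% and 25% for caput, 9.09%, 9.3% and 35.4% for corpus and 0%, 1.98% and 0% for cauda, at 55 to 125 reads. All caput and corpus samples lay above all testis samples, with replicate 1 the highest in caput and replicate 3 in corpus. The caput mean was 38.9% ± 22.8 (SD, n = 3) against 1.42% ± 1.63 (SD, n = 3) (log2 ratio 4.90, SE 0.94, limma adjusted p = 0.0222). The limma call was lost without caput replicate 1 (adjusted p = 0.0599), testis replicate 1 (0.0698) or testis replicate 3 (0.0631), with adjusted p from 0.0125 to 0.0698 over its 11 alternatives. The 3 cytosines lie close together downstream of the gene; those at chr15:103012122 and chr15:103012131 rose by 42.3 percentage points and 41.7 percentage points, and by 27.7 and 27.9 without caput replicate 1. The third, at chr15:103012110, rose by 26.5 percentage points and by 17.7 percentage points without caput replicate 1. Over the gene the caput difference was 37.5 percentage points and 24.4 without that sample, and the corpus difference was 16.5 and 7.78 without corpus replicate 3.

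Hoxa2, which patterns the hindbrain and second branchial arch (chr6:52162417-52164831, minus strand), had 1 cytosine, in a coding exon at chr6:52163387. Its level was 8.25%, 10% and 5.88% for testis, 82.9%, 40% and 34% for caput, 32.8%, 39.1% and 41% for corpus and 9.86%, 0% and 8.33% for cauda, at 61 to 134 reads. All caput and corpus samples were above testis and cauda overlapped it. The cytosine was called in both segments, with a rise of 46.6 percentage points in caput and 30.5 percentage points in corpus. Without caput replicate 1 the rise in caput was 28.5 percentage points. limma gave adjusted p = 0.0735 in caput and 0.411 in corpus, which miss the threshold; in caput it passed with cytosines of at least 20 reads (0.0421) and with 5 percent added in place of 1 (0.0325), from 0.0325 to 0.212 over its 11 alternatives.

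Hoxa9, Hoxa10 and Hoxa11 act in the posterior body axis, limbs and reproductive tract and had small rises. Hoxa11 (chr6:52242106-52245810, minus strand) had 0.637%, 0.406% and 0.57% for testis, 3.68%, 2.75% and 2.55% for caput, 2.94%, 1.9% and 2.93% for corpus and 0.859%, 0.758% and 1.2% for cauda, at 999 to 2184 reads. Caput, corpus and cauda lay above testis in every sample, though cauda by less than 1 percentage point. limma called it in caput (log2 ratio 1.40, SE 0.18, limma adjusted p = 0.00912) and in corpus (log2 ratio 1.24, SE 0.18, limma adjusted p = 0.0475), and the mean over sites in place of summed reads lost both (adjusted p = 0.237 and 0.840). Its caput adjusted p ran from 0.00431 to 0.237 over its 12 alternatives. Hoxa9 had 3.14%, 1.91% and 0.979% for testis, 13.6%, 6.14% and 6.65% for caput, 6.25%, 3.3% and 4.3% for corpus and 0.901%, 0.994% and 1.04% for cauda, and Hoxa10, which shares 12 of its 15 cytosines, had 3.33%, 1.85% and 0.91% for testis, 12.7%, 5.86% and 6.47% for caput, 6.01%, 3.19% and 4.07% for corpus and 0.856%, 0.946% and 0.998% for cauda. Caput lay above testis in both genes, by 6.8 and 6.33 percentage points in the means, and by 4.39 and 4.14 without caput replicate 1. Their caput calls by limma (adjusted p = 0.0312 and 0.0357) were lost without caput replicate 1 (0.0737 and 0.0906), testis replicate 2 (0.0806 and 0.0922) or testis replicate 3 (0.0960 and 0.105), and that of Hoxa10 with the mean over sites (0.110). The limma adjusted p ran from 0.0248 to 0.096 over its 12 alternatives for Hoxa9 and from 0.0248 to 0.11 over its 12 alternatives for Hoxa10.

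In the D cluster the called cytosine was lower. Hoxd4, active in the cervical region (chr2:74711929-74729160, plus strand), had 27.8%, 29.4% and 36.9% for testis, 9.16%, 7.66% and 7.84% for caput, 13.3%, 20.8% and 21.2% for corpus and 23%, 9.78% and 51.5% for cauda, at 83 to 209 reads. Hoxd3 held the same 4 cytosines and 1 more, with 28.2%, 25.9% and 30.8% for testis, 7.95%, 8.94% and 6.56% for caput, 11.7%, 19.4% and 19.5% for corpus and 18.3%, 9.18% and 43.6% for cauda. Caput and corpus lay below testis in every sample of both genes and the cauda samples were widely spread. In Hoxd4 nearly all methylated reads were at 1 cytosine, so the level over the window also varies with how deeply that cytosine was read, at 26, 18 and 51 reads in cauda. limma called neither in caput (adjusted p = 0.0882 and 0.0812), though it called Hoxd4 with a window of 2 kb (0.0234, from 0.0234 to 0.223 over its 11 alternatives). This shared intronic cytosine, at chr2:74721843, had 97.8%, 94% and 96% for testis, 57.1%, 51.6% and 19% for caput, 55%, 67.4% and 60.4% for corpus and 92.3%, 100% and 100% for cauda. Caput and corpus lay below testis in every sample, and cauda overlapped testis. It fell by 57.6 percentage points in caput, fell by 63 without caput replicate 1 and fell by 33.7 in corpus.

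Pax7, a transcription factor of muscle stem cells and neural crest (chr4:139737062-139833528, minus strand), had 58.1%, 41.7% and 44.8% for testis, 20.3%, 40.2% and 28.2% for caput, 12.8%, 35.8% and 30.1% for corpus and 46.7%, 40% and 35.3% for cauda, at 530 to 1187 reads. Caput and corpus lay below testis in every sample, with adjusted p = 0.251 and 0.398 by limma. In a window of 2 kb, which leaves out the cytosines named next, the differences were 3.01 and 1.54 percentage points, the other way. A pair of upstream cytosines at chr4:139836304 and chr4:139836309, 2776 and 2781 bases before the start, accounted for the called sites. Most methylated reads of the window were at this pair, so the level over the window also varies with how deeply the pair was read. At the first the level was 93.2%, 94.9% and 90.5% for testis, 28.4%, 65.4% and 54.4% for caput, 32.9%, 68.3% and 74.2% for corpus and 97.1%, 96.6% and 86% for cauda, at 82 to 324 reads. Both were called in caput and corpus. In caput they fell by 44.7 and fell by 47.6 percentage points, and without caput replicate 1 they fell by 32.4 and fell by 34.6. In corpus they fell by 28.9 and fell by 29.2 percentage points, and without corpus replicate 1 they fell by 22.6 and fell by 22.0.

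Gata2, required for blood stem cells (chr6:88193891-88207032, plus strand), had 32.6%, 20.7% and 21% for testis, 10.5%, 19.8% and 10.7% for caput, 6.54%, 14.8% and 17.2% for corpus and 28.5%, 26.8% and 19.8% for cauda, at 107 to 372 reads. Caput and corpus lay below testis in every sample and cauda overlapped it. limma gave adjusted p = 0.26 and 0.443, and called it in caput with a window of 2 kb (0.0241, from 0.0241 to 0.521 over its 12 alternatives). Without testis replicate 1 the caput mean fell by 7.15 percentage points, and with all samples it fell by 11.1. Its intronic cytosine at chr6:88203156 had 76.2%, 92.8% and 88.1% in testis, 35.7%, 54.1% and 52.3% in caput and 43.8%, 55.2% and 63.3% in corpus, and was called in both. In caput it fell by 35 percentage points, and without caput replicate 1 it fell by 32.1. It had 16 reads in corpus replicate 1, and with cytosines of at least 20 reads, which leaves it out, the gene differences were 4.36 and 4.37 percentage points, the other way. Most methylated reads of the window were at this cytosine, so the level over the window also varies with how deeply it was read. Testis replicate 1 was the lowest testis sample at this cytosine and the highest over the window.

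Otx2, which specifies forebrain and midbrain (chr14:48657677-48673819, minus strand), and Irx3, an Iroquois factor of neural and limb patterning (chr8:91798525-91802067, minus strand), rose without a called cytosine. Otx2 had 2.7%, 0.544% and 2.61% for testis, 26.6%, 16.2% and 13% for caput, 11.3%, 7.9% and 13.3% for corpus and 0.951%, 1.43% and 0.449% for cauda, at 330 to 704 reads. Irx3 had 0.791%, 0.982% and 1.7% for testis, 18.2%, 7.93% and 8.8% for caput, 2.29%, 6.84% and 4.74% for corpus and 1.11%, 0.882% and 0.231% for cauda, at 340 to 632 reads. In both genes every caput and corpus sample lay above testis and cauda overlapped it. limma called both in caput (log2 ratio 3.04, SE 0.47, limma adjusted p = 0.0113 for Otx2; log2 ratio 2.65, SE 0.45, limma adjusted p = 0.0139 for Irx3). One deep cytosine set each value: at chr14:48669465, in an intron of Otx2, caput had 29.6%, 18.1% and 13.7%, and at chr8:91805851, upstream of Irx3, it had 19%, 8.48% and 9.68%. The other cytosines of these genes, in the 5' UTR, were at 0 to 11.5% in caput, and with the mean over sites limma called neither (adjusted p = 0.0643 and 0.0752). A window of 2 kb, which leaves out the upstream cytosine, lost Irx3 too (limma adjusted p = 1). The caput limma adjusted p ran from 0.00439 to 0.0643 over its 12 alternatives for Otx2 and from 0.00672 to 1 over its 11 alternatives for Irx3. In corpus limma called Otx2 in 1 of 12 alternatives, with cytosines of at least 20 reads (adjusted p = 0.0469, against 0.117 in the main test).

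Foxd3, a forkhead factor of neural crest and pluripotent cells (chr4:99656299-99658622, plus strand), had 0%, 2.19% and 1.1% for testis, 22.9%, 15.2% and 15.9% for caput, 2.74%, 4.91% and 5.44% for corpus and 4.49%, 0.836% and 2.97% for cauda, at 260 to 366 reads. Caput and corpus lay above testis in every sample. Its caput mean was 18% ± 4.29 (SD, n = 3) against 1.09% ± 1.09 (SD, n = 3) (log2 ratio 3.58, SE 0.55, limma adjusted p = 0.0109), and the call held in all 12 alternatives run for it, with adjusted p from 0.00317 to 0.033. The called cytosine, at chr4:99656605 in the 5' UTR, was at 36.4%, 0% and 40.6% in the caput samples and at 0% in all others, so its groups overlapped; its difference was 29.6 percentage points, 26.5 without caput replicate 1 and 20.5 without caput replicate 3.

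Tbx5, which acts in heart and forelimb (chr5:119832668-119885219, plus strand), had 1 cytosine, in the 3' UTR at chr5:119884428, with 0.84%, 2.92% and 6.98% for testis, 43%, 25.8% and 11.2% for caput, 9.38%, 14.8% and 14.4% for corpus and 0%, 1.47% and 0.917% for cauda, at 68 to 159 reads. Caput and corpus were above testis in every sample. limma called it in caput (log2 ratio 3.07, SE 0.74, limma adjusted p = 0.0412), and lost it without caput replicate 1 (adjusted p = 0.118), caput replicate 2 (0.0787), testis replicate 1 (0.117) or testis replicate 2 (0.104), from 0.0233 to 0.118 over its 11 alternatives. Its mean difference over the samples was 23.1 percentage points and 14.9 without caput replicate 1. The site difference, from pooled reads, 25.5 percentage points, was 17.3 without caput replicate 1 and 24.2 without testis replicate 1.

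The second comparison, corpus against testis, used the same testis samples. Here 5 of 193 cytosines were called (2.59%, against 3.96% of all). The cytosine of Hoxa2 rose (0.518%, against 2.69%) and those of Hoxd3 and Hoxd4, Pax7 and Gata2 fell (2.07%, against 1.27%). edgeR called 0 of them and 2 of all cytosines, with 4 at an unadjusted p under 0.05 (2.07%, against 2.18% of all). At gene level limma called Hoxa11 alone of the 46 (2.17%, against 0.29% of all genes), and 17 of the 46 passed at an unadjusted p under 0.05 (37%, against 10.7% of all). That call by limma was lost without corpus replicate 1 (adjusted p = 0.0937), corpus replicate 3 (0.130), testis replicate 1 (0.0706), testis replicate 2 (0.113) or testis replicate 3 (0.0767), from 0.0158 to 0.84 over its 12 alternatives. Without testis replicate 1 limma called Foxa1, lower in corpus (adjusted p = 0.00723, against 0.363 with all samples). Without 1 sample the site test called 6 to 9 cytosines (3.11 to 4.66%, against 3.94 to 4.83% of all). Both Pax7 cytosines were lost without corpus replicate 1, where they fell by 22.6 and fell by 22.0 percentage points. The added ones were in Gata4 without corpus replicate 1 (fell by 29.2) or testis replicate 1 (fell by 35.4), in Hoxa3 without corpus replicate 1 (25.4, 27.9 and 27.6 at 3 cytosines) or corpus replicate 3 (25.5), and in Bmp4 without corpus replicate 3 (29.8). Without corpus replicate 2 they were in Pax3 (fell by 25.6), Hoxc6 (27.1), Sox2 (fell by 26.1) and Tbx3 (31.1), and Tbx3 also passed without testis replicate 2 (26.6) or testis replicate 3 (26.5), all in percentage points. All 3 corpus samples lay above testis in 12 genes (26.1%, against 7.94%) and below in 4 (8.7%, against 5.48%). The median difference over the 46 genes was 1.16 percentage points, and 0 over all genes.

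The third comparison, cauda against testis, again shares the testis samples. The only called cytosine, 0.518% of the members' against 0.233% of all, was that of Tbx3 at chr5:119689313, downstream of the gene. Tbx3 is a T-box repressor of limb and mammary development (chr5:119670669-119684724, plus strand). This cytosine had 47.1%, 81% and 92.3% in testis, at 26 to 51 reads, and 100% in each of the 3 cauda samples, at 12 to 19 reads. The testis samples were themselves far apart, and without testis replicate 1 the difference was 14.7 percentage points in place of 31.1. Over its whole window Tbx3 had 4.12%, 5.32% and 3.72% for testis, 1.55%, 2.07% and 4.93% for caput, 2.48%, 3.97% and 3.9% for corpus and 3.8%, 3.12% and 3.55% for cauda, with the groups overlapping. limma called 0 of the 46 genes (0 of 7240, 0%), with 0 of the 46 and 259 of all at an unadjusted p under 0.05, and edgeR called 0 of the members' and 0 of all cytosines, with 1 and 10 at an unadjusted p under 0.05. Cauda lay above testis in every sample for 2 genes, Hoxa11 and Notch2 (4.35%, against 3.65%), and below for 0 (against 2.85%). The median difference over the 46 genes was -0.664 percentage points, and 0 over all genes.

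Other deeply read members showed how low these windows can be. Foxc1, a forkhead factor of eye and heart (chr13:31806633-31812476, plus strand), had 0.498%, 0.146% and 0.295% for testis, 1.99%, 0.625% and 0.678% for caput, 3.33%, 2.47% and 0.921% for corpus and 0.213%, 0.109% and 0.127% for cauda, at 720 to 1406 reads. Hoxb4 (chr11:96318267-96321638, plus strand), a regulator of blood progenitors, had 1.3%, 2.79% and 2.59% for testis, 0.684%, 3.64% and 1.36% for caput, 2.63%, 2.75% and 1.36% for corpus and 2.14%, 1.98% and 0.861% for cauda, at 685 to 1533 reads. Neither passed limma in any segment, with caput adjusted p = 0.29 and 0.802; corpus lay above testis in Foxc1, as did caput, and Hoxb4 overlapped throughout. The 95% Wilson intervals of a sample's level had half-widths of 0.245 to 1.33 percentage points in Foxc1, 0.319 to 1.04 in Hoxa11 and 1.49 to 11.3 in Hoxc6. A level of 0, as in testis replicate 1 for Shh and Hoxc6, allows up to 0.357% and 2.4% by the rule of 3 reads over the summed depth. By the 95% Wilson interval it allows up to 0.455% and 2.98%. Summed reads count a fragment once for each cytosine it covers, so these limits and the half-widths are too narrow where cytosines share fragments. At single cytosines of that sample the rule of 3 allows 1.76 to 1.82% in Shh and 6.98 to 7.5% in Hoxc6. These intervals and limits cover counting error only, since PCR reads without molecular identifiers are not independent molecules.

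The sequences around the called cytosines show where the differences lie, on the plus strand of GRCm38, with the CpG of each called cytosine in capitals. Those shown belong to the genes with several called cytosines and to cytosines called in both caput and corpus. Shh covers chr5:28457805-28457833 in the 3' UTR, Bmp4 chr14:46390689-46390756 just upstream of the start and Hoxc6 chr15:103012095-103012146 downstream. Pax7 covers chr4:139836289-139836324 upstream, Hoxa2 chr6:52163372-52163402 in a coding exon, Hoxd4 chr2:74721828-74721858 in an intron and Gata2 chr6:88203141-88203171 in an intron.
Shh: ttCGcagtCGctcccCGcccCGccCGccc
Bmp4: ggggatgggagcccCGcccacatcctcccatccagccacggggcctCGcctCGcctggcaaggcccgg
Hoxc6: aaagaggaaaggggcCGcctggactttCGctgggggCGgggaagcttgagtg
Pax7: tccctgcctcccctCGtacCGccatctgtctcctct
Hoxa2: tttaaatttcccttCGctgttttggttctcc
Hoxd4: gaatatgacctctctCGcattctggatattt
Gata2: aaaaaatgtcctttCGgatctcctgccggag
In Shh, Bmp4, Hoxc6 and Pax7 the called cytosines are close together, so they are read largely by the same fragments and are not independent. Over 201 bases around each cytosine, the median observed over expected CpG was 0.587 for the 14 that rose in caput, 0.437 for the 5 that fell and 0.755 for the 174 not called. Within 2 kb of a transcription start lay 5 of the 14, 2 of the 5 and 107 of the 174.

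Some positions on the study's own lists of differing cytosines lie in these windows but not in the count table. The caput list had 50 of its 5546 positions in the windows of 22 members, 16 of them in the count table, and all 16 were among the 19 called here. The corpus list had 23 of 2228 in 13 members, 7 of them in the count table, of which 3 were called here. By their names these lists left out outliers, and the names do not say which sample. Without caput replicate 1 the site test called those same 16 listed cytosines of the members and no others. Without corpus replicate 1 it called the 7 listed ones, with those of Hoxa3 and Gata4 gained and the unlisted Pax7 pair lost. The cauda list had 1 of 227, the Tbx3 cytosine. In caput Shh held 11 listed cytosines, from chr5:28457808 to chr5:28459874 over 2067 bases, and Hoxd13, which had no cytosine in the count table, held 1.

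Marker promoters were read beside these values. Promoters of germline genes, which are unmethylated in germ cells and methylated in somatic cells, had cytosines within 1 kb of the start in 3 of 25 listed genes, D1Pas1, Tex101 and Dazl. Over their 8 cytosines the summed level was 7.65%, 1.64% and 2.47% for testis, 84.6%, 56.3% and 54.9% for caput, 30.2%, 38.2% and 10.7% for corpus and 1.26%, 3.88% and 2.98% for cauda. All 8 were called in caput, with or without caput replicate 1, 5 in corpus and 0 in cauda. D1Pas1, the highest in caput, was at 0% in every testis sample and at 89.95%, 48.7% and 71.1% in caput. The maternally methylated imprinted genes had promoter cytosines in 2 of 14, Mcts2 and Zrsr1, at 0%, 1.12% and 7.14% for testis, 45.6%, 12.6% and 14.7% for caput, 0%, 8.52% and 10.3% for corpus and 0%, 0% and 3.68% for cauda summed over 7 cytosines, of which 3 were called in caput and 0 without caput replicate 1. The paternally methylated ones had them in 2 of 3, H19 and Rasgrf1, at 58.7%, 34.3% and 24.4% for testis, 33.3%, 43.9% and 48.9% for caput, 38%, 35.6% and 37.5% for corpus and 32.8%, 36.3% and 32.2% for cauda summed over 5 cytosines. H19, methylated in sperm, was at 97.8%, 96.7% and 92.8% in testis and 87.1%, 93.2% and 93.7% in caput, and the promoter cytosines of Rasgrf1 were at 0%, 1.02% and 0% in testis. Caput replicate 1 was the highest caput sample for the germline genes, Shh, Hoxc6, Hoxa2, Bmp4 and Tbx5. At the called Foxd3 cytosine caput replicate 3 was the highest, at 40.6%. Among called cytosines that fell, caput replicate 1 was the lowest in Pax7 and Gata2. Caput replicate 3 was the lowest in Notch2, at 40%, and at the cytosine shared by Hoxd3 and Hoxd4, at 19%. The cells were sorted on 2 fluorescent proteins, and the part of other cells in the members' values was not tested.

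Other genes of the same kinds gave the following counts by limma in caput, with genes of all kinds at 7.78%. Of the 14 Hox genes not among the members, 11 had a cytosine, but 25 of their 28 cytosines also lie in members' windows, so they add little of their own. limma passed 0 of the 11, with 0 at an unadjusted p under 0.05. Their 3 cytosines called higher by the site test are those of Hoxc6, within the window of Hoxc5, and 0 were called among the cytosines outside members' windows. Of 57 other transcription factors of these families, 30 had a cytosine and 4 rose: Irx1 had 0%, 0% and 9.09% in testis and 85.7%, 66.7% and 72.7% in caput, Sox10 0%, 1.43% and 5.41% and 63.6%, 26.6% and 28.9%, and Tbx15 0%, 0% and 0.617% and 4.04%, 7.06% and 11.8%. Irx1 rests on 1 cytosine at only 11 to 26 reads a sample, Sox10 on 2 at 22 to 139 and Tbx15 on 1 at 148 to 269. Of 26 other signalling genes, 12 had a cytosine and 1 rose, Wnt5a, with 1.39%, 1.38% and 0.98% in testis and 82.5%, 60.7% and 44.4% in caput. Of 20 Polycomb and Trithorax regulators, 9 had a cytosine and 2 rose, the neighbours Cbx8 (21.1%, 7.47% and 12.7% in caput) and Cbx2 (16.6%, 6.1% and 9.38%). The 3 germline genes all rose, and of the imprinted genes with a cytosine, 4 maternal and 2 paternal, 0 passed limma, with 1 and 0 at an unadjusted p under 0.05 and 3 and 0 cytosines called higher by the site test. In these lists 0 genes fell in caput by limma, with 9, 3 and 3 genes at an unadjusted p under 0.05 in either direction in the transcription factor, signalling and Polycomb lists. The site test called 8 of 86, 7 of 43 and 2 of 33 cytosines of these lists higher in caput (9.3%, 16.3% and 6.06%, against 11.5% of all) and 4, 1 and 1 lower (4.65%, 2.33% and 3.03%, against 5.25%). limma passed 0 genes in corpus or cauda, and at an unadjusted p under 0.05, in the order of the lists above, 0, 4, 1, 2, 3, 1 and 0 in corpus and 2, 0, 1, 0, 0, 0 and 0 in cauda. Median differences in caput were 0.640 percentage points for the other Hox genes, 2.94 for the other transcription factors, -0.394 for signalling genes and 0.363 for the Polycomb and Trithorax regulators, 57.3 for the germline genes, 6.70 for the maternal and -1.80 for the paternal imprinted genes, against 0 over all genes.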

How the data were processed

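The authors sequenced RRBS libraries of 12 samples, trimmed reads with Trim Galore 0.4.1, aligned them to GRCm38 with Bismark 0.16.1 and used methylKit. The deposited count table gives all, methylated and unmethylated reads per cytosine, each with at least 10 reads in every sample, and no normalisation was applied. The authors' lists of differing cytosines were used for their positions alone. Their other columns hold the authors' own differences, p-values and q-values and were not used, nor were the lists of regions. By their names, the lists for caput and corpus left out outliers; all 12 samples were used here.

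Reads were summed over the cytosines in each GENCODE M21 gene body and 5 kb either side. Sites were tested by logistic regression (likelihood ratio, Benjamini-Hochberg over all cytosines, adjusted p under 0.01, difference above 25 percentage points) and genes by limma 3.58.1 with a trend on log2((percent + 1)/(100 - percent + 1)), adjusted p under 0.05. Alternatives were edgeR 4.0.16, a larger difference, a smaller p, at least 20 reads, a 2 kb window, 2 kb around transcription starts, merged strands, another added percent, the mean over sites, at least 3 sites, a replicate block and leaving out each sample. Python 3.11.15, numpy 2.4.6, pandas 2.3.3, scipy 1.17.1, matplotlib 3.10.9 and R 4.3.3 were used.

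Values in every sample are given for members with a called cytosine or gene, the 5 with most reads, the most methylated in testis and Notch2. Up to 3 called cytosines per member are named, and for other lists the 3 called genes with the largest caput difference. Other genes named for a call made without 1 sample were chosen after their values were seen. The lists named are other Hox genes, other transcription factors of the members' families, other signalling genes, Polycomb and Trithorax regulators, germline genes, and imprinted genes of maternal and paternal methylation. The members and lists were chosen with earlier results of these data known.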

Additional observations from a re-analysis of the deposited data

Results flagged for a closer look

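Notch2 had a methylation level in which all 3 cauda samples lay above, and all 3 caput samples below, all 3 testis samples. The mean was 4.04 percentage points higher than testis in cauda and fell by 7.96 percentage points in caput. Testis replicate 2 was the lowest testis sample, at 91.4% against 95.8% and 95.5%. Without it the cauda difference is smaller and the caput difference larger. The comparisons share the testis samples, and the difference between the segments was not tested.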

How the results depend on the processing

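With all samples, 19, 5 and 1 of the members' cytosines were called in caput, corpus and cauda, and 10, 1 and 0 genes. In caput, edgeR called 7 cytosines (3.63%, against 305 or 2.16% of all), a difference above 40 percentage points 12 (6.22%, against 1240 or 8.76%) and 2 kb around transcription starts 7 (6.14%, against 11.3% of all cytosines so placed). The members' share was above that of all cytosines by edgeR's adjusted p, with its 7 cytosines in Shh and Pax7 alone. It was below that of all by the site test (9.84% against 16.8%). In corpus these gave 0 (2 of all), 0 (70 of all) and 3 (2.63%, against 2.50%), and the 2 kb window 3 (1.79%, against 3.43%). In cauda edgeR (0 of all) and a difference above 40 (3 of all) gave 0. So did at least 20 reads (15 of all, 0.159%), the 2 kb window (19 of all, 0.183%) and 2 kb around starts (8 of all, 0.129%). Leaving out each sample in turn gave 16 to 21 cytosines in caput (8.29 to 10.9%, against 11.9 to 19.5% of all), 6 to 9 in corpus (3.11 to 4.66%, against 3.94 to 4.83%) and 0 to 1 in cauda (0 to 0.518%, against 0.233 to 0.445%).

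For genes in caput, with 10 members (21.7%, against 7.78% of all), the mean over sites gave 6 (13.0%, against 7.91%), 5 percent added 12 (26.1%, against 9.82%), the 2 kb window 11 (26.8%, against 7.85%, gaining Hoxd4 and Gata2, lower, and losing Irx3), at least 20 reads 9 (31.0%, against 16.4%) and at least 3 sites 8 (29.6%, against 12.5%). Leaving out a sample gave 5 to 10, the lowest without caput replicate 1 (10.9%, against 2.71%). In corpus, 5 percent added, the mean over sites and at least 3 sites gave 0 members, against 1, 2 and 0 of all genes (0.0138%, 0.0276% and 0%). At least 20 reads gave 2 of 29 (6.90%, against 0.841% of all), gaining Otx2. Leaving out a sample gave 0 to 1 in corpus (0 to 2.17%, against 0.0691 to 0.483%). The replicate numbers gave no sign of pairing. Correlations to the testis sample of the same number ran from -0.121 to 0.0405 over all cytosines after subtracting group means. Not every sample correlated best with its own number. These values cannot exclude a shared pool of mice, since counting noise at these depths lowers such correlations. With replicate number as a block, limma called 8 genes in caput (17.4%, against 3.55% of all), losing Tbx5 (adjusted p = 0.0779) and Hoxc6 (0.0549), and 0 in corpus (0 of all), losing Hoxa11 (0.0849).

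The sign of 5 gene differences reversed. In a 2 kb window Pax7 was 3.01 percentage points higher than testis in caput and 1.54 in corpus. With at least 20 reads Gata2 was 4.36 and 4.37 higher. With the mean over sites Tbx3 was 2.79 higher in cauda. The 2 kb window leaves out the called cytosines of Pax7, and the minimum of 20 reads leaves out that of Gata2, which had 16 reads in corpus replicate 1. For the other results that changed, the cause was not tested. Of the other gene differences, 468 moved by less than the spread between replicates and 25 by more. Of the counts of called cytosines and genes under the alternatives, 53 stayed within 1.5 times the count with all samples and 25 did not.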
